A study of Mus musculus with 10 samples.

Results

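The 10 genes described here encode RNA-binding regulators of neural development: Zfp36l1, Pum2, Tnrc6a, Tnrc6c, Msi1, Elavl2, Elavl3, Elavl4, Celf3 and Celf4. They form a list of symbols and were found among 22180 genes as the probe sets annotated with exactly 1 of these symbols, taking for each gene the probe set with the highest mean over all arrays. All 10 had such a probe set, Zfp36l1 had a second one, and RefSeq lists all 10 as protein-coding genes. The values described are levels of the mRNAs of these proteins in RNA fractions, not the levels or the binding of the proteins.

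The RNA came in 3 groups, hybridised to Affymetrix Mouse Gene 2.0 ST arrays, all from cortices of CD1 mouse embryos at embryonic day 12 to 13. The 4ET-IP group held RNA bound to 4E-T (arrays 4ET-IP 1, 2 and 3), the IgG-IP group held RNA recovered with control IgG (IgG-IP 2, 3 and 4), and the input group held total RNA (input 1 to 4). Biological replicates number 3 for each fraction in the series' design, although 4 inputs are labelled. How many embryos stand behind an array, whether they were pooled and what genotype they had is not stated in the labels. The comparison of 4ET-IP with IgG-IP asked which mRNAs were relatively more abundant with 4E-T than with a control antibody, and the comparisons with input set each precipitate against the RNA of the tissue.

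4E-T, the product of Eif4enif1, binds the cap-binding protein eIF4E, keeps mRNAs from translation and takes part in forming processing bodies. The proteins of the TTP family (Zfp36, Zfp36l1, Zfp36l2) bind AU-rich elements in 3′ untranslated regions and recruit the deadenylation and decay machinery. Pumilio and Musashi proteins repress translation of chosen mRNAs in stem and precursor cells, and GW182 proteins (the Tnrc6 genes) link Argonaute and its microRNA to deadenylases. Neuronal ELAV proteins stabilise AU-rich mRNAs and promote neuronal differentiation, and CELF proteins act on splicing, stability and translation.

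Values are log2 levels from RMA, a method that corrects background, normalizes by quantiles and summarises the probes of a set, so they are relative to the other RNAs on the same array and total RNA recovered was not compared. Across probe sets the median level was 3.52 for 4ET-IP 1 and 3.54 for input 1, compared with 4.33 to 4.54 for the other 8 arrays. These 2 arrays shared exactly equal values at 7.52% of probe sets, while other pairs shared 0.138% or less. They are called the lower set here, and since no IgG-IP array belongs to it, the test carried a term for it (the set term). Differences are log2 differences from 1 limma fit of the 10 arrays with their standard error (SE, n = 3, 3 and 4 arrays), and a gene is called higher or lower at a Benjamini-Hochberg adjusted p under 0.05 over all 22180 genes. With the set term, 4ET-IP 1 enters 4ET-IP over IgG-IP only through its difference from input 1. That comparison therefore rests mainly on 4ET-IP 2 and 3 against the IgG-IP arrays. The 3 comparisons share arrays, so their results are not independent of each other.

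With the set term, 72.1% of all calls in 4ET-IP over IgG-IP were higher, against 52.5% with a fit of group alone and 92.8% with group alone after centring each array on its median. The corresponding shares were 54.0%, 41.7% and 69.6% in 4ET-IP over input and 36.9%, 26.7% and 12.1% in IgG-IP over input. The median difference of all genes in these 3 comparisons was 0.03, 0.04 and 0.03 with the set term. It was -0.19, -0.02 and 0.20 with group alone, and 0.25, 0.11 and -0.11 after centring. It was 0.14, 0.09 and -0.04 when all arrays were quantile-normalized again. Both rescalings were fitted with group alone, so each changes the scale and drops the set term together. The differences given under those settings are to be read against these shifts.

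The tissue label was set against marker genes. Of 11 cortical markers 10 were measured. Their levels were summed on the linear scale, where the brightest genes weigh most, and the log2 of the sum was taken. Outside the lower set it was 13.06 to 13.15 in 4ET-IP, 12.71 to 12.87 in IgG-IP and 12.62 to 12.79 in input. For markers of hindbrain and spinal cord (4 Hox genes) this value was 5.29 in 4ET-IP, 5.38 to 5.61 in IgG-IP and 5.18 to 5.38 in input on the same arrays. In 4ET-IP over IgG-IP, 4 of the 10 cortical markers were called higher (Emx1, Emx2, Nes and Sox2), where 7.57% of all genes were called higher. So were 1 of 4 ventral forebrain markers, 1 of 5 endothelial markers and 1 of 6 meningeal and mesenchymal markers (Gad2, Kdr and Foxc1). With group alone limma called none of the 10 cortical markers (5 had an unadjusted p under 0.05), and Kdr but neither Gad2 nor Foxc1 (adjusted p = 0.368 and 0.414). Leaving out 1 array at a time left 2 to 4 cortical markers called, the fewest without 4ET-IP 2. Emx1 lost its call with each array left out except input 4 (adjusted p of 0.0563 or more) and with the replicate number as a block (adjusted p = 0.0834). Emx2 lost its call without 4ET-IP 2 (adjusted p = 0.0538) and Gad2 without 4ET-IP 3 (adjusted p = 0.0637). In 4ET-IP over IgG-IP none of the 4 Hox genes, 3 erythroid genes and 5 microglia and macrophage genes was called in either direction. In limma 0, 1 and 1 of them had an unadjusted p under 0.05 there. Against input Emx1 was -0.18 ± 0.16 in 4ET-IP (adjusted p = 0.530) and -0.79 ± 0.16 in IgG-IP (adjusted p = 0.00556). In IgG-IP over input Emx1 and Tubb3 were called lower and 2 cortical markers higher, where 10.5% of all genes were lower and 6.14% higher. Of 5 endothelial markers 3 were called lower there (Cdh5, Cldn5 and Pecam1), and 1 to 3 with 1 array left out. Group alone called none of these lower. The erythroid gene Hba-x was lower in IgG-IP over input (-0.85 ± 0.15, adjusted p = 0.00259), also with group alone (adjusted p = 0.0310). Dcn, a mesenchymal marker, was lower (-1.09 ± 0.22, adjusted p = 0.00526). Cx3cr1, a microglia and macrophage marker, was higher (0.71 ± 0.16, adjusted p = 0.00978). Group alone called neither Dcn nor Cx3cr1 (adjusted p = 0.403 and 0.221). In 4ET-IP over input 5 cortical, 2 ventral forebrain, 1 endothelial and 1 mesenchymal marker were higher, where 10.4% of all genes were higher. Cx3cr1 was higher there too (1.21 ± 0.16, adjusted p = 3.15e-04). Hba-x was lower (-0.48 ± 0.15, adjusted p = 0.0422), where 8.86% of all genes were lower. Group alone called neither Cx3cr1 nor Hba-x there (adjusted p = 0.266 and 0.230). The part of these markers in the results below was not tested. The 3 groups are RNA fractions, so a marker's difference between them is one of relative level and does not measure numbers of cells. Within the bulk input, fewer cells of a type and less RNA per cell cannot be told apart.

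Among the 10 mRNAs, Zfp36l1 was higher and Pum2 lower in 4ET-IP than in IgG-IP, and the other 8 were not called. Of all genes, 7.57% were called higher and 2.92% lower in this comparison. The median difference of the 10 mRNAs was 0.02, beside 0.03 for all genes. Against input, 5 of the 10 were higher in 4ET-IP (Zfp36l1, Elavl2, Elavl3, Tnrc6a and Tnrc6c), where 10.4% of all genes were called higher. Their median was 0.41, beside 0.04 for all genes. In IgG-IP over input 4 were higher (Pum2, Tnrc6c, Tnrc6a and Elavl2), where 6.14% of all genes were called higher, and the median was 0.34, beside 0.03. No member was called lower than input by limma in either precipitate. At an unadjusted p under 0.05 the number lower was 0 in 4ET-IP and 1 in IgG-IP. In those comparisons 8.86% and 10.5% of all genes were called lower. All 10 were among the 11090 genes kept when genes with a low mean level were left out. Of those genes 2164, 2655 and 1496 were called higher in 4ET-IP over IgG-IP, 4ET-IP over input and IgG-IP over input. Called lower were 732, 2216 and 2647. Of the 10, that fit called 2, 6 and 4 higher and 1, 0 and 0 lower. The shares of all genes, here and for the other lists, include dim genes and are not shares among genes of similar level.

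A fit of group alone called fewer of the 10. Between 4ET-IP and IgG-IP it called Pum2 lower (adjusted p = 0.0383) and none higher, where it called 0.64% of all genes lower and 0.708% higher. At an unadjusted p under 0.05 limma had 1 member higher in that fit. In 4ET-IP over input it called Zfp36l1 alone higher, where 2.56% of all genes were called higher and 3.58% lower. In IgG-IP over input it called Pum2, Tnrc6a and Tnrc6c higher, where 1.45% of all genes were called higher and 3.99% lower.

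**Figure D1:**
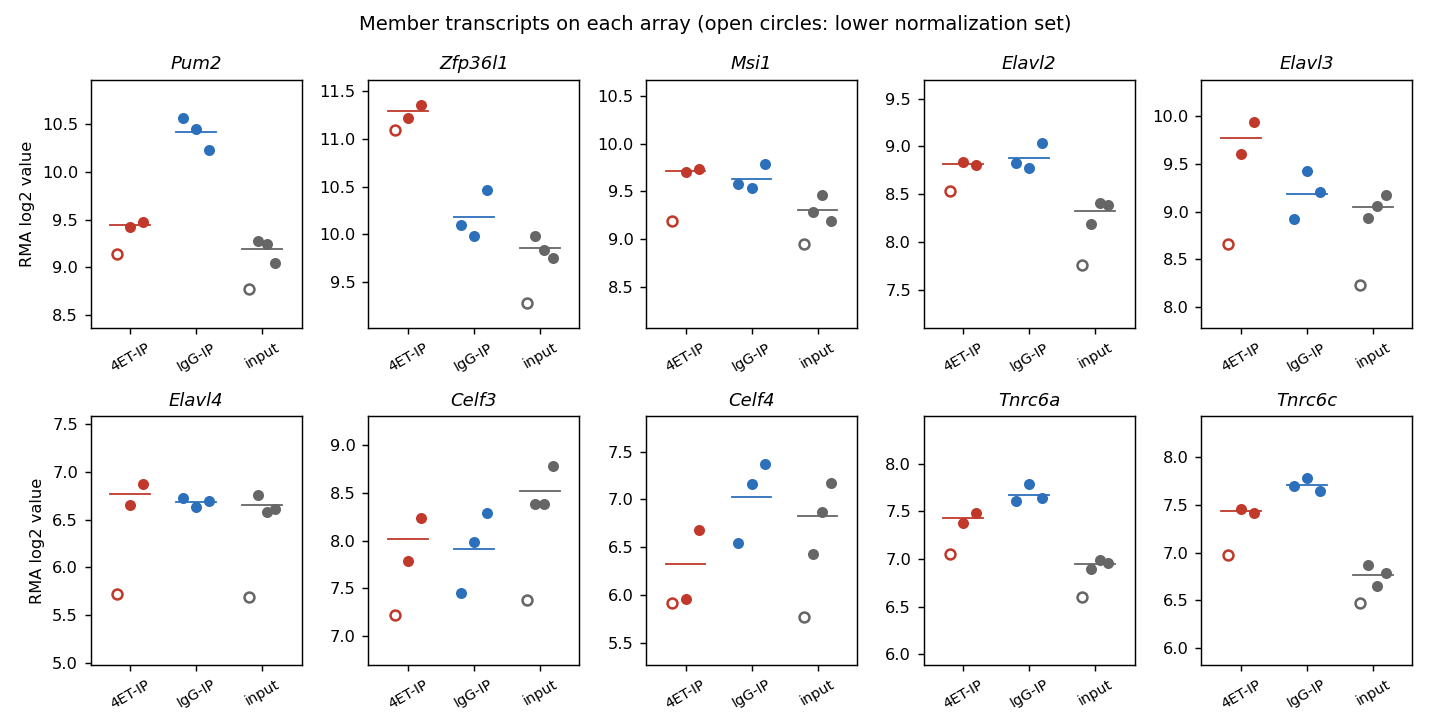
RMA log2 value (y axis, scale set per gene) of each of the 10 mRNAs on each array, with 4ET-IP, IgG-IP and input from left to right; open circles are the lower set (4ET-IP 1 and input 1) and lines are the means of the other arrays. Zfp36l1 lies at 11.09 or above on every 4ET-IP array and Pum2 at 10.23 or above on every IgG-IP array.

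Zfp36l1, the TTP-family decay factor, was the member with the largest excess with 4E-T. Its log2 level was 11.09, 11.22 and 11.36 in 4ET-IP 1, 2 and 3, against 10.10, 9.98 and 10.46 in IgG-IP 2, 3 and 4. The 4 inputs stood at 9.28, 9.98, 9.84 and 9.76. Every 4ET-IP array, also the one in the lower set, lay above every other array, while IgG-IP and input overlapped slightly at 9.98. The difference was 1.18 ± 0.17 over IgG-IP (2.26-fold, adjusted p = 0.00161), which placed it 276th of 22180 genes from the top. Over input it was 1.54 ± 0.15 (2.91-fold, adjusted p = 8.71e-05), in 69th place. IgG-IP over input gave 0.37 ± 0.16, which was not called (adjusted p = 0.149, 95% interval 0.02 to 0.71). Within equal replicate numbers, 4ET-IP exceeded input by 1.81, 1.24 and 1.52 for numbers 1, 2 and 3. Number 1 compares the 2 arrays of the lower set with each other. With group alone the difference over IgG-IP was 1.04 and missed the threshold (adjusted p = 0.0590), while that over input stayed called (adjusted p = 0.00344).

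A second probe set annotated with Zfp36l1 gave the same order of groups. It read 9.10, 9.24 and 9.17 in 4ET-IP, 8.34, 8.39 and 8.61 in IgG-IP, and 7.65, 8.51, 8.04 and 7.95 in input. In a fit of all 23521 single-symbol probe sets its difference was 0.83 ± 0.18 over IgG-IP (adjusted p = 0.0156) and 1.16 ± 0.16 for 4ET-IP over input (adjusted p = 5.46e-04).

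Both measured paralogs of Zfp36l1 were called higher with 4E-T as well. Zfp36l2, which acts on AU-rich mRNAs like its relatives, read 7.85, 8.80 and 8.80 in 4ET-IP, 7.70, 7.79 and 7.31 in IgG-IP, and 6.58, 7.39, 7.49 and 7.06 in input. The 4ET-IP arrays were again the highest, although 4ET-IP 1 exceeded IgG-IP 3 by little. Its difference was 1.16 ± 0.18 over IgG-IP (adjusted p = 0.00217) and 1.42 ± 0.16 over input (adjusted p = 1.37e-04). Zfp36, which encodes tristetraprolin itself, read 6.08, 7.34 and 7.14 in 4ET-IP, 6.48, 6.29 and 6.61 in IgG-IP, and 5.62, 6.79, 6.60 and 6.99 in input. Here 4ET-IP 1 lay below all IgG-IP arrays, and the excess was seen outside the lower set. Its difference was 0.78 ± 0.16 over IgG-IP (adjusted p = 0.00928) and 0.45 ± 0.14 over input (adjusted p = 0.0410). Neither paralog was called over IgG-IP with group alone (adjusted p = 0.237 for Zfp36l2 and 0.667 for Zfp36). Zfp36 lost its call over IgG-IP without 4ET-IP 2 (0.72, adjusted p = 0.0686). Over input Zfp36 lost it without any 1 of 4ET-IP 1, 2 and 3 and input 1, 2 and 3 (adjusted p between 0.0802 and 0.189).

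Pum2, a Pumilio protein that binds UGUA-containing elements in 3′ untranslated regions and represses translation, ran the other way. Its log2 level was 9.14, 9.42 and 9.47 in 4ET-IP, against 10.56, 10.45 and 10.23 in IgG-IP. The inputs read 8.77, 9.28, 9.25 and 9.04. All IgG-IP arrays lay above all other arrays, and 4ET-IP overlapped input. 4ET-IP over IgG-IP gave -0.95 ± 0.15 (1.93-fold lower, adjusted p = 0.00244), in place 21910 of 22180 from the top. The value of IgG-IP over input was 1.24 ± 0.14 (2.36-fold, adjusted p = 1.48e-04), in 71st place, and pairs of equal number gave 1.28, 1.20 and 1.18. For 4ET-IP over input it was 0.29 ± 0.13, which was not called (adjusted p = 0.172). The low value over IgG-IP thus stood beside a 4ET-IP level that was not below that of the tissue. With median centring and no set term the difference over IgG-IP was -0.63 and not called (adjusted p = 0.0648), with a median of all genes at 0.25.

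**Figure D2:**
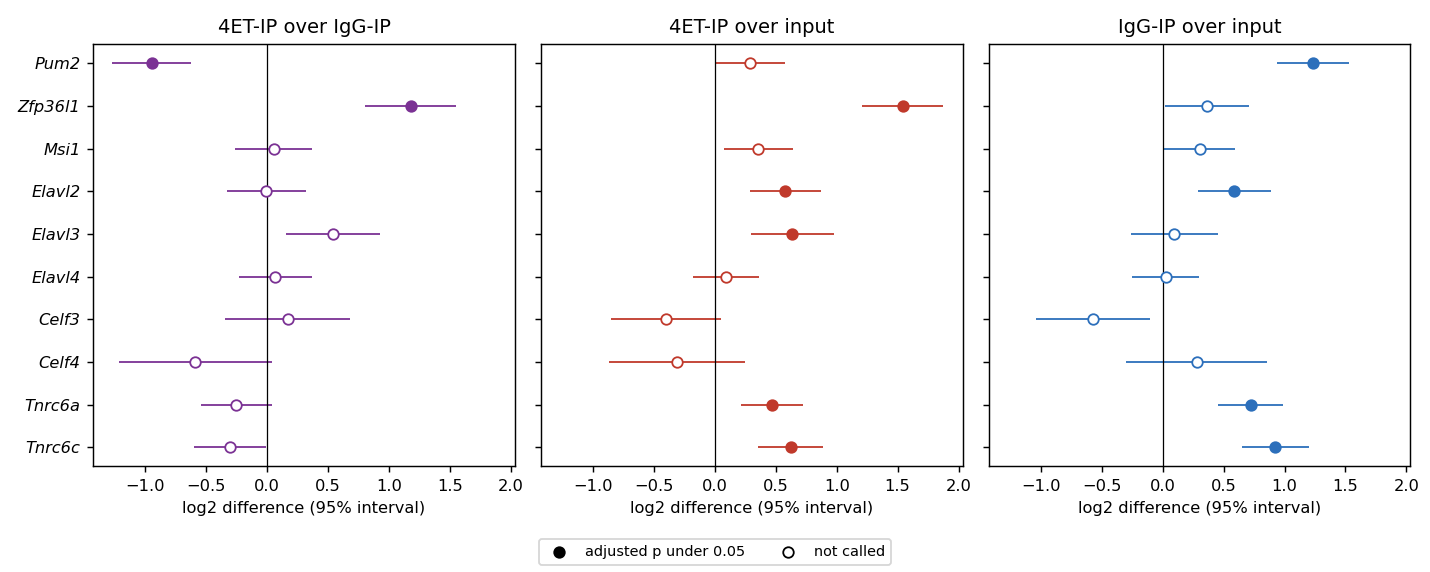
Log2 difference (x axis) with its 95% interval for each of the 10 mRNAs in 4ET-IP over IgG-IP (left), 4ET-IP over input (middle) and IgG-IP over input (right); filled points passed an adjusted p of 0.05. In the left panel only Zfp36l1 (1.18) and Pum2 (-0.95) are filled.

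The GW182 genes Tnrc6a and Tnrc6c were higher than input in both precipitates. Tnrc6a, which encodes GW182, read 7.05, 7.38 and 7.48 in 4ET-IP, 7.61, 7.78 and 7.63 in IgG-IP, and 6.61, 6.90, 6.99 and 6.96 in input. Tnrc6c, its paralog, read 6.97, 7.46 and 7.41 in 4ET-IP, 7.70, 7.79 and 7.65 in IgG-IP, and 6.47, 6.87, 6.65 and 6.79 in input. For both genes the 3 groups did not overlap, with IgG-IP highest and input lowest. 4ET-IP over input was 0.47 ± 0.12 for Tnrc6a (1.38-fold, adjusted p = 0.0143) and 0.62 ± 0.12 for Tnrc6c (1.54-fold, adjusted p = 0.00361). IgG-IP over input was 0.72 ± 0.12 for Tnrc6a (1.65-fold, adjusted p = 0.00175) and 0.93 ± 0.13 for Tnrc6c (1.90-fold, adjusted p = 4.76e-04). The differences of 4ET-IP over IgG-IP were -0.25 ± 0.13 and -0.31 ± 0.14 and were not called (adjusted p = 0.285 and 0.199), with 95% intervals of -0.54 to 0.04 and -0.60 to -0.01. The call of Tnrc6a in 4ET-IP over input was lost without 4ET-IP 2 (adjusted p = 0.0520) or without 4ET-IP 3 (adjusted p = 0.0826), after median centring without the set term (adjusted p = 0.0747) and with group alone (adjusted p = 0.298). That of Tnrc6c was lost with group alone (adjusted p = 0.132), and Tnrc6a in IgG-IP over input after median centring without the set term (adjusted p = 0.112).

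The genes that act with GW182 were counted beside them. Of 10 listed Argonaute and microRNA effector genes 9 were measured. Between 4ET-IP and IgG-IP limma called 0 of them, and 1 had an unadjusted p under 0.05. In 4ET-IP over input 4 were higher (Ago1, Ago2, Dicer1 and Limd1) and 1 lower (Tarbp2, a Dicer partner), where 10.4% of all genes were called higher and 8.86% lower. In IgG-IP over input 2 were higher (Dicer1 and Limd1) and 1 lower (Tarbp2), where 6.14% of all genes were called higher and 10.5% lower. Dicer1, the enzyme that makes mature microRNAs, was 0.55 ± 0.14 over input in 4ET-IP (adjusted p = 0.0167) and 0.87 ± 0.15 over input in IgG-IP (adjusted p = 0.00171). Leaving out 1 array at a time left 1 to 5 of the 9 higher in 4ET-IP over input and 1 to 3 in IgG-IP over input. The fewest in 4ET-IP over input came without 4ET-IP 2, where Dicer1 (adjusted p = 0.115), Ago1 (adjusted p = 0.189) and Ago2 (adjusted p = 0.0656) lost their calls. Dicer1 lost it without 4ET-IP 3 too (adjusted p = 0.0563). With group alone limma called 0 of the 9 in 4ET-IP over input, where 3 were higher and 1 lower at an unadjusted p under 0.05, and 1 higher (Dicer1) and 1 lower (Tarbp2) in IgG-IP over input. With the replicate block Ago1 was not called in 4ET-IP over input (adjusted p = 0.0603).

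Msi1, the Musashi protein of neural precursors known to repress Numb translation, was not called in any comparison. It read 9.19, 9.70 and 9.73 in 4ET-IP, 9.58, 9.53 and 9.79 in IgG-IP, and 8.95, 9.28, 9.46 and 9.19 in input. Outside the lower set both precipitates lay above all inputs. The difference was 0.05 ± 0.15 over IgG-IP (adjusted p = 0.883, 95% interval -0.27 to 0.37). Against input it was 0.36 ± 0.13 in 4ET-IP (adjusted p = 0.0792) and 0.31 ± 0.13 in IgG-IP (adjusted p = 0.158). Its paralog Msi2, read at 10.81, 11.38 and 11.46 in 4ET-IP, 11.68, 11.70 and 11.60 in IgG-IP, and 10.56, 11.07, 11.09 and 10.94 in input, was called in IgG-IP over input (0.60 ± 0.12, adjusted p = 0.00519).

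Of the 3 neuronal ELAV genes, Elavl2 was called higher than input in both precipitates, Elavl3 in 4ET-IP and Elavl4 in neither, and differences between these genes were not tested. Elavl2 (HuB) read 8.54, 8.83 and 8.81 in 4ET-IP, 8.82, 8.77 and 9.04 in IgG-IP, and 7.76, 8.18, 8.41 and 8.39 in input. All precipitates lay above all inputs. It was higher than input by 0.58 ± 0.13 in 4ET-IP (1.49-fold, adjusted p = 0.00873) and by 0.59 ± 0.14 in IgG-IP (1.50-fold, adjusted p = 0.0116). 4ET-IP over IgG-IP was -0.01 ± 0.15 (adjusted p = 0.987, 95% interval -0.33 to 0.32). The call in 4ET-IP over input was lost without 4ET-IP 1 or input 1, each of which leaves the fit of the 8 other arrays (0.50, adjusted p = 0.0538), and with group alone (adjusted p = 0.210). The call in IgG-IP over input was lost with group alone (adjusted p = 0.0958) and after median centring without the set term (adjusted p = 0.230).

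Elavl3 (HuC), a marker of newborn neurons, read 8.66, 9.61 and 9.94 in 4ET-IP, 8.92, 9.43 and 9.20 in IgG-IP, and 8.23, 8.93, 9.06 and 9.17 in input. Outside the lower set, 4ET-IP lay above IgG-IP and input, and these 2 groups overlapped. 4ET-IP over input was 0.64 ± 0.16 (1.55-fold, adjusted p = 0.0132), a call that was lost without 4ET-IP 3 (0.51, adjusted p = 0.0998), with group alone (adjusted p = 0.482) and after renewed quantile normalization without the set term (0.69, adjusted p = 0.0578). 4ET-IP over IgG-IP was 0.54 ± 0.18 and not called (adjusted p = 0.0772, 95% interval 0.15 to 0.92). With the replicate number as a block it was 0.56 and called (adjusted p = 0.0484), and without IgG-IP 3 it was 0.66 and called (adjusted p = 0.0497). IgG-IP over input was 0.10 ± 0.16 (adjusted p = 0.763).

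Elavl4 (HuD), which stabilises Gap43 mRNA in neurons, was not called in any comparison. It read 5.72, 6.65 and 6.88 in 4ET-IP, 6.72, 6.63 and 6.70 in IgG-IP, and 5.69, 6.76, 6.58 and 6.61 in input. The 2 arrays of the lower set were the lowest, and the 3 groups overlapped on the other 8. Its differences were 0.07 ± 0.14 in 4ET-IP over IgG-IP, 0.09 ± 0.12 in 4ET-IP over input and 0.02 ± 0.13 in IgG-IP over input (adjusted p = 0.837, 0.730 and 0.936). The 95% interval of the first was -0.23 to 0.37. Elavl1 (HuR), the relative found in most tissues, was higher than input in IgG-IP (0.56 ± 0.14, adjusted p = 0.0141) and not called in 4ET-IP (0.14 ± 0.13, adjusted p = 0.573).

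The CELF genes Celf3 and Celf4, both neuronal, were not called in any comparison. Celf3 read 7.22, 7.79 and 8.24 in 4ET-IP, 7.45, 7.98 and 8.29 in IgG-IP, and 7.38, 8.39, 8.39 and 8.78 in input. Outside the lower set every precipitate lay below every input. Its differences against input were -0.40 ± 0.21 in 4ET-IP (adjusted p = 0.233) and -0.57 ± 0.21 in IgG-IP (adjusted p = 0.0977). The difference of IgG-IP over input was called with the replicate block (-0.59, adjusted p = 0.0182) and without IgG-IP 4 (-0.76, adjusted p = 0.0334). 4ET-IP over IgG-IP was 0.17 ± 0.23 (adjusted p = 0.746, 95% interval -0.34 to 0.68).

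Celf4, which binds mRNAs of synaptic proteins, read 5.92, 5.96 and 6.68 in 4ET-IP, 6.54, 7.16 and 7.37 in IgG-IP, and 5.77, 6.43, 6.87 and 7.17 in input. It had the widest intervals of the 10 genes in the main fit, and its 3 groups overlapped. Pairs of equal number gave -0.58 and -0.48 for 4ET-IP over IgG-IP. They gave 0.15, -0.47 and -0.19 for 4ET-IP over input, and 0.11, 0.29 and 0.20 for IgG-IP over input. With the replicate block 4ET-IP over IgG-IP was -0.43 ± 0.16 and not called (adjusted p = 0.123). The differences were -0.59 ± 0.29 in 4ET-IP over IgG-IP (adjusted p = 0.246, 95% interval -1.22 to 0.04), -0.31 ± 0.26 in 4ET-IP over input and 0.28 ± 0.26 in IgG-IP over input (adjusted p = 0.513 and 0.561). Of the 4 other CELF genes measured, Celf1 and Celf2, which are expressed well beyond the nervous system, were called higher in IgG-IP than in input (0.53 ± 0.15 and 0.71 ± 0.17, adjusted p = 0.0342 and 0.0155). Celf1 lost that call without any 1 of 4ET-IP 2, IgG-IP 2 and 3 and input 2, 3 and 4 (adjusted p between 0.0529 and 0.105), and Celf2 without input 2 (adjusted p = 0.0526) or input 3 (adjusted p = 0.0552). Celf5 and Celf6, on the probe sets used, were not called in any comparison, with differences of 0.05 ± 0.18 and 0.14 ± 0.21 in 4ET-IP over IgG-IP. Second, dimmer probe sets of paralogs were fitted among all 23521 single-symbol probe sets. That of Celf5 was called higher in 4ET-IP over input (0.73 ± 0.20, adjusted p = 0.0254). In IgG-IP over input that of Celf2 was not called (0.58 ± 0.35, adjusted p = 0.314), and that of Msi2 was (0.49 ± 0.14, adjusted p = 0.0294).

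**Figure D3:**
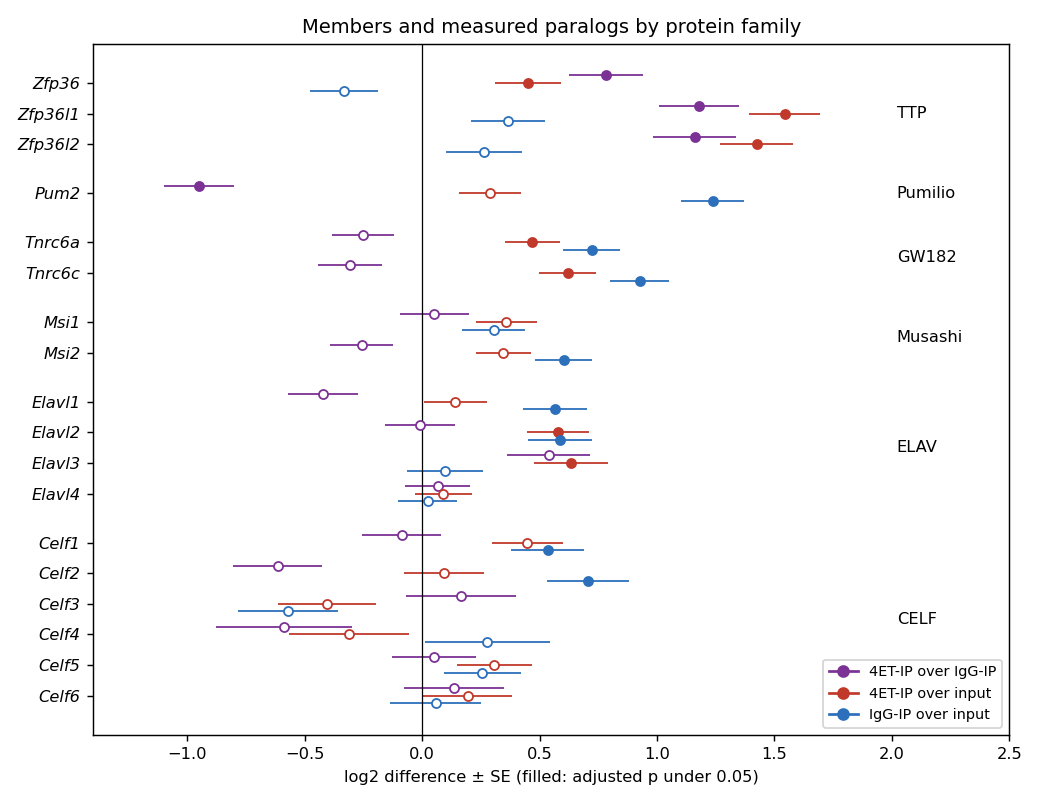
Log2 difference with its SE (x axis) for the 10 mRNAs and their 8 measured paralogs, grouped by protein family, with 1 colour for each comparison; filled points passed an adjusted p of 0.05. The 3 TTP-family genes are filled in both comparisons of 4ET-IP, at 0.45 to 1.54.

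Counted together, 8 paralogs were measured. In 4ET-IP over IgG-IP and in 4ET-IP over input 2 of the 8 were higher, Zfp36 and Zfp36l2. In IgG-IP over input 4 were higher, Msi2, Elavl1, Celf1 and Celf2. No paralog was called lower by limma in the 3 comparisons, where 2, 0 and 1 were lower at an unadjusted p under 0.05. In the same order, 7.57%, 10.4% and 6.14% of all genes were called higher and 2.92%, 8.86% and 10.5% lower. With 1 array left out, 1 to 2, 1 to 3 and 2 to 4 paralogs were called higher, and 0 to 1 lower in 4ET-IP over IgG-IP. The median of the 8 in 4ET-IP over IgG-IP was -0.02, beside 0.03 for all genes. Celf2 was -0.61 ± 0.19 (adjusted p = 0.0622) in that comparison and was called lower without IgG-IP 2 (-0.76, adjusted p = 0.0261). Elavl1 was -0.42 ± 0.15 (adjusted p = 0.0999), Msi2 -0.26 ± 0.13 (adjusted p = 0.276) and Celf1 -0.09 ± 0.17 (adjusted p = 0.827). With group alone, limma called 0 of the 8 in 4ET-IP over IgG-IP and 0 in IgG-IP over input, with 3 and 4 at an unadjusted p under 0.05.

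**Figure D4:**
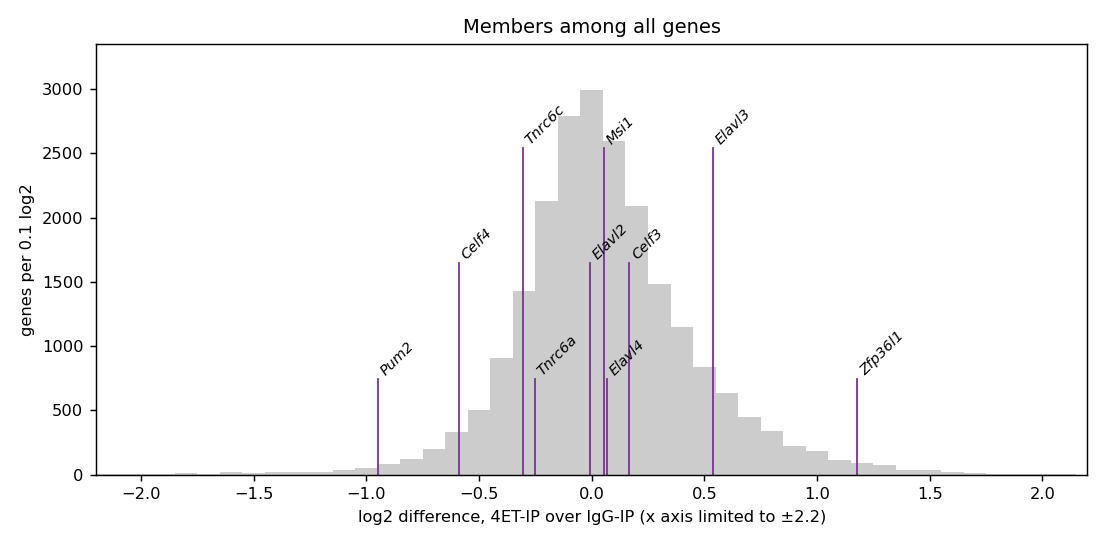
Number of genes in steps of 0.1 log2 (y axis) by their log2 difference in 4ET-IP over IgG-IP (x axis), with the 10 mRNAs as vertical lines whose heights only separate the names. Zfp36l1 at 1.18 and Pum2 at -0.95 lie in the tails, and the other 8 lie between -0.59 and 0.54.

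Other translational repressors and localization factors were taken from a list of 22 genes, all measured. In 4ET-IP over IgG-IP 4 were higher, 2 were lower and 16 were not called, with a median of 0.14 beside 0.03 for all genes. Of all genes, 7.57% were called higher and 2.92% lower. Mex3b and Mex3c encode RNA-binding proteins with KH domains. Mex3b read 9.44, 9.82 and 9.76 in 4ET-IP, 8.56, 8.36 and 8.62 in IgG-IP, and 7.52, 8.44, 8.38 and 8.39 in input. Its difference over IgG-IP was 1.37 ± 0.16 (2.58-fold, adjusted p = 4.08e-04), and that of Mex3c was 0.77 ± 0.14 (1.71-fold, adjusted p = 0.00589). Both kept their call when any 1 array was left out. Cpeb4 (1.07 ± 0.26, adjusted p = 0.0213) and Cpeb2 (0.83 ± 0.22, adjusted p = 0.0332) encode proteins that bind cytoplasmic polyadenylation elements. Cpeb4 lost its call without 4ET-IP 2, 4ET-IP 3 or IgG-IP 3 (adjusted p between 0.0567 and 0.111). Cpeb2 lost its call without 4ET-IP 2 or 3 or any 1 IgG-IP array (adjusted p between 0.0545 and 0.215).

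The 2 lower genes of that list were Rc3h2, which encodes the stem-loop-binding protein Roquin-2 (-0.60 ± 0.16, adjusted p = 0.0300), and Larp1, which encodes a protein that binds terminal oligopyrimidine mRNAs (-0.55 ± 0.15, adjusted p = 0.0376). Rc3h2 lost its call without 4ET-IP 2 or 3 or IgG-IP 3 or 4, and Larp1 without 4ET-IP 2 or 3, IgG-IP 2 or 3, or input 2 or 3 (adjusted p up to 0.207). With the replicate block Rc3h2 was not called over IgG-IP (adjusted p = 0.0523), while Mex3a was called higher (adjusted p = 0.0449) and Caprin2 lower (adjusted p = 0.0125). Against input, 9 of the 22 were higher and 1 lower in 4ET-IP, where 10.4% of all genes were called higher and 8.86% lower. In IgG-IP over input 5 were higher (2 to 4 with 1 array left out), where 6.14% of all genes were called higher. The 9 included all 4 Mex3 genes, Cpeb2 and Cpeb4. With group alone, limma called 0 of the 22 in 4ET-IP over IgG-IP (4 had an unadjusted p under 0.05). Group alone called 5 of them higher and none lower in 4ET-IP over input, and 2 higher in IgG-IP over input. It called 2.56% and 1.45% of all genes higher in these 2 comparisons.

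A list of 12 mRNAs known as targets of these RNA-binding proteins held 11 that were measured. In 4ET-IP over IgG-IP 4 were higher (Numb, E2f3, Cdkn1b and Vegfa), 7 were not called and the median was 0.24, beside 0.03 for all genes. The share of all genes called higher in this comparison was 7.57%. Numb, the Notch antagonist repressed by Msi1, read 6.59, 7.19 and 7.18 in 4ET-IP, 6.67, 5.84 and 6.34 in IgG-IP, and 5.98, 6.65, 6.57 and 6.40 in input (0.89 ± 0.20 over IgG-IP, adjusted p = 0.0156). E2f3, a cell cycle transcription factor regulated by Pumilio in human cells, read 9.45, 9.89 and 9.96 in 4ET-IP, 9.28, 8.91 and 8.93 in IgG-IP, and 8.12, 8.58, 8.54 and 8.46 in input (0.87 ± 0.15 over IgG-IP, adjusted p = 0.00393). Every 4ET-IP array lay above every IgG-IP and input array for E2f3, and Numb overlapped through 4ET-IP 1.

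Cdkn1b, which encodes the cell cycle inhibitor p27, was 0.61 ± 0.15 over IgG-IP (adjusted p = 0.0255), and Vegfa, an angiogenic factor whose mRNA TTP-family proteins destabilise, was 0.58 ± 0.17 (adjusted p = 0.0450). E2f3 stayed called over IgG-IP with any 1 array left out. Numb lost its call without 4ET-IP 2 (adjusted p = 0.0786) or 3 (adjusted p = 0.0757). Cdkn1b lost it without any 1 of 4ET-IP 1, 2 and 3, IgG-IP 3 and 4 and input 1 (adjusted p between 0.0517 and 0.130). Vegfa lost it without any 1 of 4ET-IP 1, 2 and 3, IgG-IP 3 and input 1, 2 and 3 (adjusted p between 0.0591 and 0.169). With group alone, limma called 0 of the 11 over IgG-IP, and 2 had an unadjusted p under 0.05. Against input, 5 were higher and 1 lower in 4ET-IP, where 10.4% of all genes were called higher and 8.86% lower. In IgG-IP over input 2 were higher and 1 lower, where 6.14% of all genes were called higher and 10.5% lower. The lower target in both comparisons was Cdkn1a, which encodes p21. In 4ET-IP over input Cdkn1a lost its call without 4ET-IP 2 (adjusted p = 0.135), 4ET-IP 3 (adjusted p = 0.0892) or input 2 (adjusted p = 0.0702). With group alone 1 target was higher and none lower in 4ET-IP over input, and 1 was higher and 1 lower in IgG-IP over input. That fit called 2.56% and 1.45% of all genes higher in these 2 comparisons, and 3.58% and 3.99% lower. With the replicate block Gap43, which encodes a growth cone protein, was called lower than input in 4ET-IP (adjusted p = 0.0252) and in IgG-IP (adjusted p = 0.0301).

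For each of the 10 mRNAs the genes most alike in pattern were found by Pearson's r over the 8 arrays outside the lower set, as a description. These arrays share their groups, so genes that differ between groups in the same direction correlate. The nearest to Zfp36l1 were Zfp60 and Ccdc88a (r = 0.986 and 0.984), and the nearest to Pum2 were Edem1 and Usp24 (r = 0.993 and 0.990). Tnrc6a was nearest to Cog3 and Pank3 (r = 0.992 and 0.984) and Tnrc6c to Usp34 and Tug1 (r = 0.993 and 0.988). Msi1 was nearest to Zfp362 and Fam126a (r = 0.961 and 0.960). Elavl2 was nearest to Heatr5b and Zfp781 (r = 0.987 and 0.982), Elavl3 to Mzt1 and Trhr (r = 0.974 and 0.972), and Elavl4 to Wincr1 and Znrf1 (r = 0.951 and 0.933). Celf3 was nearest to Cystm1 and Ccdc183 (r = 0.977 for both), and Celf4 to Zscan4e and Vamp7 (r = 0.955 and 0.950). No member of the list was among the nearest 2 genes of another.

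**Figure D5:**
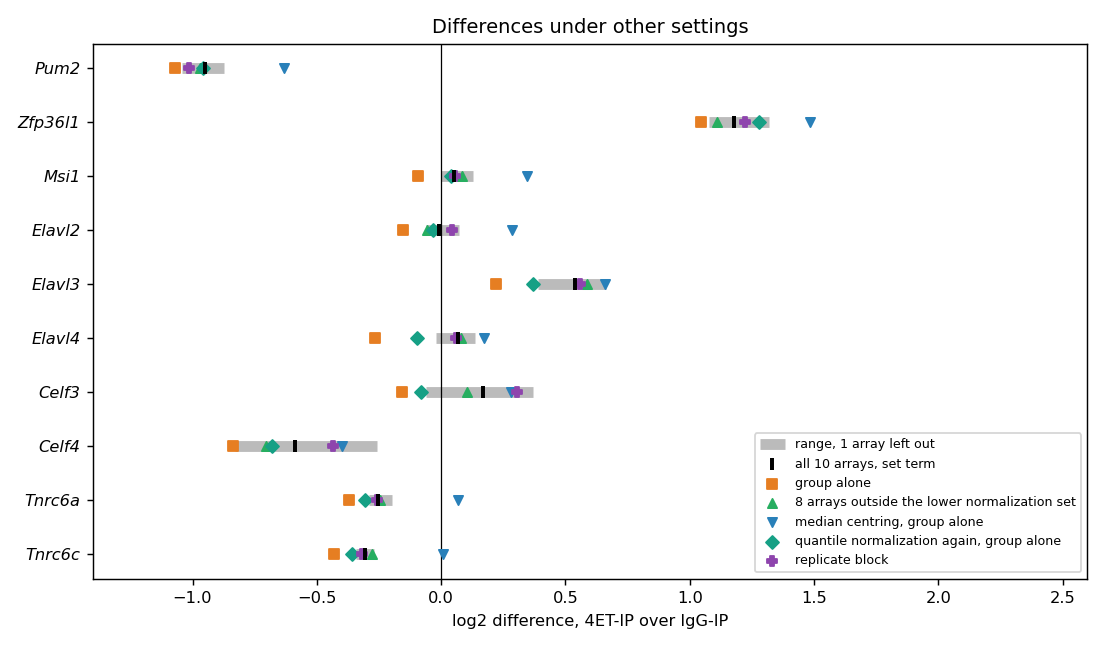
Log2 difference in 4ET-IP over IgG-IP (x axis) of each of the 10 mRNAs under the settings in the legend, with grey bars for the range when 1 array was left out. Zfp36l1 lay above 0 and Pum2 below 0 under each setting drawn, while Msi1, Elavl2, Elavl4, Celf3, Tnrc6a and Tnrc6c had values on both sides of 0.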

How the data were processed

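Per the submitters' processing notes, the deposited log2 values were made by the authors with RMA in Affymetrix Expression Console; versions, probe-set build and antibody details are not given in the sources used here. Per the labels' protocols, RNA was precipitated with a Magna RIP kit, extracted with phenol and chloroform, checked on a BioAnalyzer, amplified with a NuGEN Pico kit and labelled with biotin. The table held 41345 probe sets, of which 23521 had 1 gene symbol in the platform annotation, for 22180 genes; the one with the highest mean was kept for each gene.

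The lmFit and eBayes functions of limma 3.58.1 (R 4.3.3) were run on all 10 arrays, with group and the lower set (arrays whose median lay over 0.5 log2 below the median of array medians) as terms, and the p-values were adjusted by Benjamini and Hochberg. The script was tested on simulated data. Tables and figures were made with Python 3.11.15 and matplotlib 3.10.9. No detection calls were used, and precision is limited by how many arrays there are. The p-values measure the spread between arrays that the design text calls biological replicates.

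The members, the lists, the set term and the alternatives were chosen with earlier results of these data known. All members and paralogs were named, and of the other lists up to 4 called genes per direction by size of the difference in 4ET-IP over IgG-IP; the genes named only in the comparisons with input, and the markers, were chosen after their values were seen. For likeness, predicted genes, clone names, microRNAs, snoRNAs and chemoreceptors were left out. Alternatives were group alone, the 8 other arrays, median centring and renewed quantile normalization (both with group alone, which changes 2 choices together), the replicate block, leaving out dim genes, the mean of probe sets, eBayes with trend and robust settings, and leaving out each array.

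Replicate numbers come from the labels. Deviations from group means of 4ET-IP and input arrays of equal number correlated across genes at 0.62, 0.24 and 0.28, above the pairing criterion of 0.1, but at 0.044 and 0.0085 in the 8 other arrays. For IgG-IP and input they were -0.023, 0.080 and 0.32, and for 4ET-IP and IgG-IP -0.067 and 0.022. In the 8 other arrays the values for IgG-IP and input were 0.137, 0.091 and 0.247 for numbers 2, 3 and 4. Those of numbers 2 and 4 lay above the criterion. The main fit nevertheless carried no term for replicate number, and the replicate block was fitted as an alternative. For 4ET-IP and IgG-IP the values in the 8 other arrays were 0.015 and 0.031. Number 1 is the lower set, so the block takes the place of the set term.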

Additional observations from a re-analysis of the deposited data

Results flagged for a closer look

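Elavl4 in input had 1 array far from the others. It read 5.69 on input 1, against 6.76, 6.58 and 6.61 on inputs 2, 3 and 4. The gap to the nearest of the others was 0.832 of the whole range, above Dixon's 95% critical value for 4 arrays. Input 1 belongs to the lower set, and the other array of that set, 4ET-IP 1, read 5.72. The test was made in the input group for each of the 10 mRNAs, and for each the value tested was that of input 1. With 1 array on a lower scale, the usual chance rate of about 1 in 20 does not apply to these tests. The gap is thus not particular to Elavl4 in its direction, and the part of the scale in it was not tested.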

How the results depend on the processing

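Of the differences of the 10 mRNAs in the 3 comparisons, 210 of the values under 8 other settings kept their direction and side of the threshold, 12 lost a call, 8 gained one and 10 changed sign. With 1 array left out these numbers were 285, 5, 2 and 8. Those with a changed sign were all from differences that were not called. In 4ET-IP over IgG-IP, group alone gave -0.0936 for Msi1, -0.27 for Elavl4 and -0.16 for Celf3. Median centring with group alone gave 0.29 for Elavl2, 0.0674 for Tnrc6a and 0.00911 for Tnrc6c, and -0.0360 for Elavl4 in IgG-IP over input. Renewed quantile normalization with group alone gave -0.0986 for Elavl4 and -0.0803 for Celf3, and the replicate block gave 0.0439 for Elavl2. With 1 array left out, 4ET-IP over IgG-IP ranged from -0.0620 to 0.0732 for Elavl2, from -0.0220 to 0.14 for Elavl4 and from -0.0618 to 0.37 for Celf3. In IgG-IP over input it ranged from -0.0267 to 0.23 for Elavl3 and from -0.0103 to 0.0648 for Elavl4. The number of members called in 4ET-IP over IgG-IP, 4ET-IP over input and IgG-IP over input was 2, 5 and 4. It was 1, 1 and 3 with group alone, 2 in IgG-IP over input with median centring and group alone, and 2 to 3, 3 to 5 and 4 to 5 with 1 array left out. All genes called numbered 2326, 4274 and 3688, and 299, 1361 and 1206 with group alone. Median centring with group alone called 2474 in 4ET-IP over input. With 1 array left out the counts ranged from 930 to 2268, from 2703 to 4679 and from 2612 to 3471. The lowest counts of both 4ET-IP comparisons came without 4ET-IP 2 (930 and 2703), and those without 4ET-IP 3 were 935 and 2707. The replicate block called 2454, 4510 and 4120 genes. Among the members it changed the call of Elavl3 in 4ET-IP over IgG-IP and of Celf3 in IgG-IP over input, both given with their values above, and no other member's call. Leaving out dim genes kept 11090 genes (mean over 4.75), and Elavl3 in 4ET-IP over IgG-IP (adjusted p = 0.0387) and Msi1 in 4ET-IP over input (adjusted p = 0.0332) were then called. The same 2 were called with trend and robust settings (adjusted p = 0.0365 and 0.0254). Msi1 in 4ET-IP over input was called after renewed quantile normalization with group alone (0.45, adjusted p = 0.0480), and Elavl3 in 4ET-IP over IgG-IP after median centring with group alone (0.66, adjusted p = 0.0339). The cause of these changes was not tested.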

Other observations

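Of 26 listed RNA-binding proteins of the nervous system outside these families 22 were measured. In 4ET-IP over IgG-IP 2 were higher, 2 were lower and 18 were not called, with a median of -0.08 beside 0.03 for all genes, where 7.57% of all genes were called higher and 2.92% lower. Ptbp1, a splicing repressor of precursor cells, read 9.51, 9.69 and 9.60 in 4ET-IP, 8.89, 8.59 and 8.53 in IgG-IP, and 9.11, 9.21, 9.08 and 9.20 in input. Its 3 groups did not overlap, and 4ET-IP over IgG-IP was 0.96 ± 0.15 (1.95-fold, adjusted p = 0.00227). It was called with any 1 array left out and with group alone (adjusted p = 0.0453). Mbnl2, a Muscleblind splicing factor, was 0.68 ± 0.16 over IgG-IP (adjusted p = 0.0218) and lost its call without 4ET-IP 2, 4ET-IP 3 or IgG-IP 3 (adjusted p between 0.0646 and 0.148).

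The 2 lower genes were Rbfox2, a splicing factor (-0.65 ± 0.19, adjusted p = 0.0457), and Tardbp, which encodes TDP-43 (-0.55 ± 0.15, adjusted p = 0.0418). Rbfox2 lost its call when any 1 array other than IgG-IP 3 and input 4 was left out (adjusted p between 0.0553 and 0.172). Tardbp lost it without 4ET-IP 2 or 3, any 1 IgG-IP array, input 3 or input 4 (adjusted p between 0.0549 and 0.236). With group alone 1 of the 22 was higher (Ptbp1) and none lower, where 6 were lower at an unadjusted p under 0.05 in limma. Against input, 5 were higher and 2 lower in 4ET-IP, where 10.4% of all genes were called higher and 8.86% lower. In IgG-IP over input 5 were higher and 3 lower, where 6.14% of all genes were called higher and 10.5% lower. Group alone called 1 higher and 1 lower in 4ET-IP over input and 0 in IgG-IP over input, where 8 had an unadjusted p under 0.05 in limma.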
